A study of Homo sapiens with 6 samples.

Results

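The genes described here are the nuclear effectors of the Hippo pathway and a set of their target genes, taken by gene symbol from the expression table of C4-2B prostate cancer cells. They are 10 of the 58024 genes listed: the coactivators YAP1 and WWTR1 (the gene of TAZ), the DNA-binding factors TEAD1, TEAD2, TEAD3 and TEAD4, and the target genes CTGF, CYR61, ANKRD1 and AMOTL2. CTGF and CYR61 are the names in the table for CCN2 and CCN1. The study compared 3 RNA-Seq libraries of parental C4-2B cells with 3 libraries of enzalutamide resistant C4-2B cells. C4-2B is a castration-resistant human prostate cancer line that descends from LNCaP, and enzalutamide is an antiandrogen drug. The resistant cells were selected by passage in enzalutamide rising from 1 to 20 µM for at least 6 months and then kept in 5 µM, and the surviving cells were pooled, so that they are 1 pooled population and not independent clones. The parental cells were passaged alongside in the vehicle, dimethyl sulfoxide, which the submitters' design text gives as 1% and the methods as a lower final concentration. RNA was extracted from cells exposed to 10 µM enzalutamide, and the sources name both kinds of cells there, which leaves unclear what the parental cells received at extraction. The labels do not say whether the 3 libraries of a group came from separate cultures, and p values therefore measure the spread between these libraries, which may be technical.

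In the Hippo pathway, the kinases MST1 and MST2 (STK4 and STK3) with SAV1 activate the kinases LATS1 and LATS2 with MOB1, and these phosphorylate YAP and TAZ, which are then held in the cytoplasm and degraded. When the kinases are off, YAP and TAZ enter the nucleus, bind TEAD factors and switch on genes such as CTGF and CYR61. The pathway is controlled mainly at the level of protein phosphorylation and location, which RNA levels do not measure. YAP is active in many epithelial cancers and is known to be low in many neuroendocrine tumours.

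Upstream sequences are shown for CTGF, ANKRD1 and YAP1. Among the target genes with a promoter window, CTGF and ANKRD1 are those with more than 1 TEAD motif. The sequences show where the letters of the TEAD motif stand. CTGF and YAP1 differed between the cells, and ANKRD1 was too low to be tested. The sequences are the 250 bases before the transcription start in RefSeq (GRCh38.p14), read 5′ to 3′ on the strand of the gene, with the TEAD motif GGAATG in capitals.
CTGF, chr6:131951373-131951622, minus strand: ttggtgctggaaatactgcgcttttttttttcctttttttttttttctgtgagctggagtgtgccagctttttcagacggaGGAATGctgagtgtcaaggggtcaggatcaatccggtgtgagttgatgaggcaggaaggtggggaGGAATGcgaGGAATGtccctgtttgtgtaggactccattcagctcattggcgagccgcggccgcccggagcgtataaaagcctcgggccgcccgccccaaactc
ANKRD1, chr10:90921088-90921337, minus strand: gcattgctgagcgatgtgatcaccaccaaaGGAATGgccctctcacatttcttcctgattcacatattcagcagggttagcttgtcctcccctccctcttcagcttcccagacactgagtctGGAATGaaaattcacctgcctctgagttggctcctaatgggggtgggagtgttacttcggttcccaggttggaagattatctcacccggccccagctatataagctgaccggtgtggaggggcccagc
YAP1, chr11:102110197-102110446, plus strand: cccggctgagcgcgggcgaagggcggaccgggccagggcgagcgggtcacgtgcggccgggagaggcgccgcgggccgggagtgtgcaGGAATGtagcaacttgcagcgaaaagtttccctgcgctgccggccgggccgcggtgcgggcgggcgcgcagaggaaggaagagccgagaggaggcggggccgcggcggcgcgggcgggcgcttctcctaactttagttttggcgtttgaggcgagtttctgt

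Promoter windows of 250 bases before to 50 bases after the start were found in RefSeq for 7 of the 10 genes, in 10 windows, since WWTR1, TEAD2 and AMOTL2 have 2 starts each. CYR61, TEAD1 and TEAD4 had no window. The letters GGAATG or their reverse complement CATTCC were counted on both strands. In the CTGF window they begin 169, 104 and 95 bases before the start. In the ANKRD1 window they begin 220 and 128 bases before the start, and in the YAP1 window 162 bases before it. AMOTL2 has CATTCC 69 bases before 1 of its starts. No match was found in the windows of WWTR1, TEAD2 and TEAD3. Of the 34943 windows of this length in the table, 14.0% hold the motif at least once, 1.37% at least 2 times and 0.126% at least 3 times. The AP-1 motif, which is often found near TEAD motifs, was searched as TGANTCA, with any base allowed at N. A match with the letters TGATTCA was found in the ANKRD1 window, 195 bases before the start, and 7.72% of all windows held a match. The match in the ANKRD1 window does not overlap a TEAD motif. A match is a run of letters and does not show binding.

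**Figure D1:**
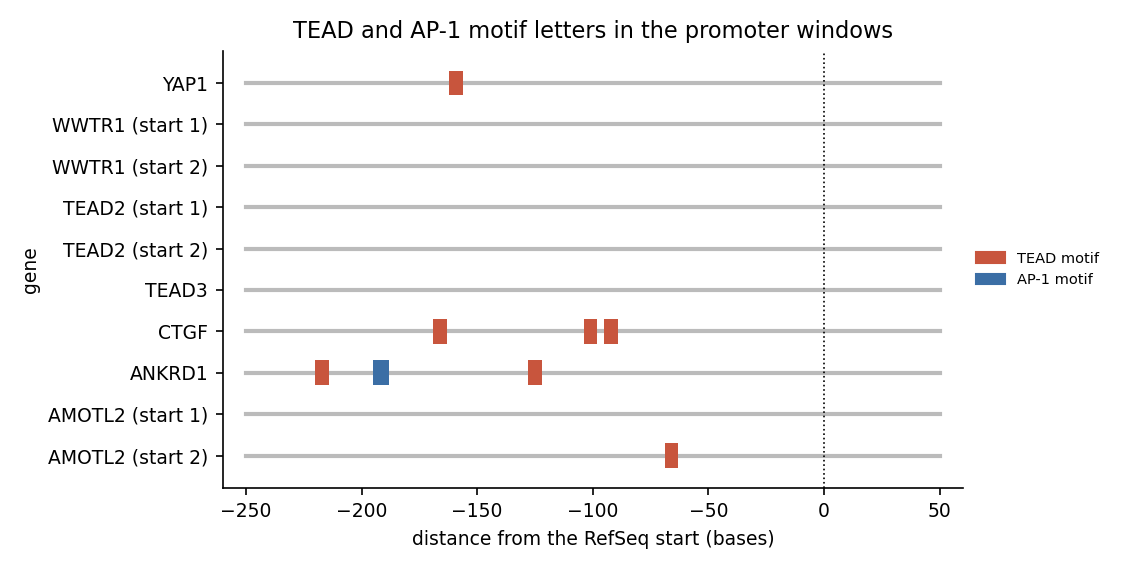
Positions of TEAD motif letters (red) and AP-1 motif letters (blue) on either strand in the RefSeq promoter windows of the genes with a window. The x axis is the distance in bases from the transcription start (dotted line), and each grey line is a window. CTGF holds 3 TEAD motifs, ANKRD1 holds 2 and YAP1 holds 1, while the windows of WWTR1, TEAD2 and TEAD3 hold none.

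The table names no unit, and its values were taken as FPKM, a read density that takes account of transcript length and sequencing depth, so that levels of different genes can be set side by side. The 6 columns summed to between 792975 and 870110 FPKM. The table holds no read counts, and the depth was estimated at 13500000 to 20400000 reads per library. For this, the most frequent low value of single-transcript genes, corrected for length, was assumed to stand for 1 read. On a gene of 2000 bases 1 read is then worth 0.0272 to 0.0412 FPKM. Resistant and parental cells were compared with limma on log2(FPKM + 0.1) over the 24468 genes averaging 0.1 FPKM or more, and a gene was called when its two-sided Benjamini-Hochberg adjusted p was below 0.05. By this rule 44.4% of all genes tested were called, 22.1% as higher and 22.3% as lower in the resistant cells, and in 54.8% the ranges of the groups were disjoint. All 9 luminal prostate markers looked up were above 0 in every library, and HOXB13, a transcription factor of the prostate lineage, lay between 96.1 and 109.8 FPKM in all 6 libraries. The androgen target KLK3, which encodes prostate specific antigen, fell from between 2321 and 2857 FPKM in the parental libraries to between 41.8 and 46.8 FPKM in the resistant group. Of 8 neuroendocrine markers 6 were tested and 5 rose, of which CHGA, CHGB and SCG3 passed the filter on low values only through the resistant libraries. The list had summed levels of 7.13 to 11.3 FPKM in the parental and 208 to 233 FPKM in the resistant libraries, and INSM1, a transcription factor of neuroendocrine cells, was at or below 0.0558 FPKM in every library.

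The effectors changed in different directions between resistant and parental cells. TEAD2 and CTGF rose, YAP1, TEAD3 and CYR61 fell, and WWTR1, TEAD1, TEAD4 and AMOTL2 did not pass the threshold. ANKRD1 was too low to be tested. Of the 9 genes tested, 5 were thus called and 7 did not overlap between the groups, and the shares of all genes given above, 44.4% and 54.8%, are to be read beside these counts. The median log2 fold change of the 9 genes was 0.28, against −0.05 over all genes tested. CTGF passed the filter on low values only through the resistant libraries.

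**Figure D2:**
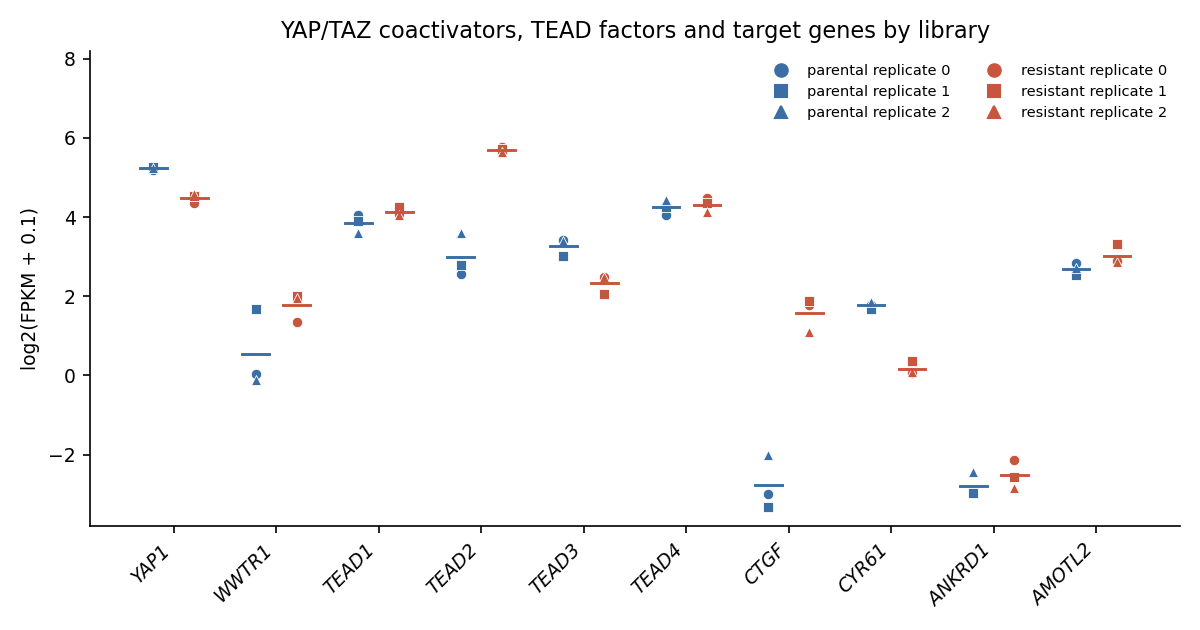
Level of each of the 10 genes on the log2(FPKM + 0.1) scale, with 1 point per library (blue parental, red resistant, the shape gives the replicate) and a bar at the mean of the 3 log2 values of a group. TEAD2 and CTGF lie higher in all resistant libraries, YAP1, TEAD3 and CYR61 lie lower in all of them, and parental replicate 1 is apart from the other parental libraries in WWTR1.

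YAP1, the main coactivator of the pathway (ENSG00000137693.13, GRCh38, chromosome 11, 102110447 to 102233424), was measured at 36.6, 38.6 and 38.0 FPKM in parental and at 20.4, 23.0 and 23.6 FPKM in resistant replicates 0, 1 and 2. Every resistant value was below every parental value. The mean level fell 1.69-fold, from 37.7 ± 1.01 to 22.4 ± 1.72 FPKM (SD, n = 3 each). The log2 fold change was −0.75 ± 0.09 (SE, limma, adjusted p = 0.000814). YAP1 was the coactivator with the higher level in all 6 libraries. In RNA of whole cultures, fewer cells that express a gene and less RNA per cell cannot be told apart. By the root mean square difference of centred log2 values over the 6 libraries, the genes most like YAP1 among 16381 genes averaging 1 FPKM or more were BCAS2, KIAA1671 and LINS1, with differences of 0.03, 0.03 and 0.04 log2 units.

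WWTR1, which encodes TAZ, the paralog of YAP (ENSG00000018408.14, chromosome 3, 149517235 to 149736714), was measured at 0.920, 3.11 and 0.816 FPKM in parental and at 2.45, 3.93 and 3.76 FPKM in resistant replicates 0, 1 and 2. Parental replicate 1 stood above the other parental libraries and above resistant replicate 0, so that the groups overlapped. The log2 fold change was 1.24 with a 95% interval from −0.02 to 2.5 (limma, adjusted p = 0.10). Without parental replicate 1, the parental library highest in WWTR1, it was 1.82 (standard error 0.30, adjusted p = 0.00665 by the same limma fit). With any other library left out it lay between 0.91 and 1.45 (limma, adjusted p from 0.128 to 0.242). In the fit without parental replicate 1, 6 of the 9 genes tested were called, 3 higher and 3 lower, against 10190 of all 24414 genes tested. The part of YAP1 in the summed level of both coactivators was 97.5%, 92.5% and 97.9% in parental cells against 89.3%, 85.4% and 86.3% in resistant cells. These shares do not depend on how the libraries are scaled, and the groups did not overlap. The antisense gene WWTR1-AS1 and the intronic gene WWTR1-IT1 lie within WWTR1 and were at 0 in all parental libraries and at 0.0428 to 0.192 FPKM and 0.252 to 1.12 FPKM in the resistant group. Whether reads were counted by strand is not given in the sources used here.

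The parental library that stood apart in WWTR1 also stood apart in some mesenchymal and stromal markers. PDGFRB, a growth factor receptor of pericytes and fibroblasts, had 1.39, 3.55 and 1.38 FPKM in the parental libraries. COL3A1, a fibrillar collagen, had 0.170, 2.24 and 0.174 FPKM, and THY1, a surface protein of fibroblasts, had 0.0568, 1.08 and 0.211 FPKM in the same order. All of these were highest in parental replicate 1. In all, 6 of the 9 markers were highest among the parental libraries in replicate 1, VIM, COL1A2 and LUM by a smaller margin. COL1A2, at 0.0143 against 0 FPKM, and LUM, at 0.0928 against 0.0882 and 0 FPKM, were near 0. Of the lists described below, 11 of 26 upstream genes and 7 of 18 further targets were also highest in that replicate. Of the 9 luminal prostate markers, 0 were highest and 7 were lowest in it. The share over all genes was not computed. Parental replicate 1 also had the lowest summed level of the parental libraries, 799614 FPKM against 867264 and 870110 FPKM over all genes. The part of this lower sum in the counts was not tested. Among the mesenchymal and stromal markers, COL1A1 and ACTA2 were lowest in parental replicate 1, with 4.98 and 1.16 FPKM. DCN, a proteoglycan of connective tissue, was at 0 in all parental libraries. The summed level of the 9 markers was 30.7, 37.3 and 31.7 FPKM in the parental group and 15.8 to 23.3 FPKM in the resistant group. Of the 8 markers tested between the groups, DCN, LUM and ACTA2 rose and VIM and PDGFRB fell, which is 62.5% called against 44.4% of all genes. DCN and LUM passed the filter on low values only through the resistant libraries. VIM, an intermediate filament protein, fell 4.07-fold in mean level (log2 fold change −2.01, limma, adjusted p = 8.95e-05). FRMD6, an adaptor that acts above the Hippo kinases, was highest among the parental libraries in the same replicate, with 4.51 FPKM against 2.37 and 2.34 FPKM. The part of these markers in the values of WWTR1 was not tested.

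**Figure D3:**
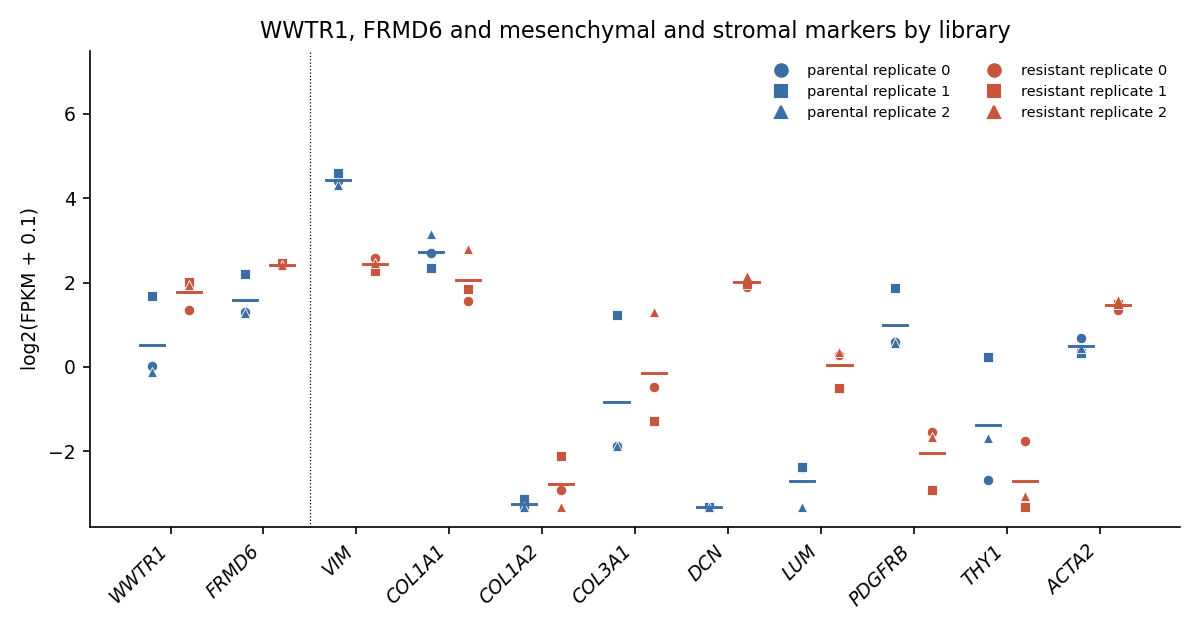
Levels of WWTR1 and FRMD6 (left of the dotted line) and of the 9 mesenchymal and stromal markers (right) on the log2(FPKM + 0.1) scale, with 1 point per library and a bar at the mean of the 3 log2 values of a group. Parental replicate 1 (blue square) lies above the other parental libraries in WWTR1, FRMD6, COL3A1, PDGFRB and THY1, by less in VIM, COL1A2 and LUM, and not in COL1A1, ACTA2 or DCN.

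The TEAD factors carry YAP and TAZ to DNA, and their makeup differed between the cells. TEAD2 (ENSG00000074219.13, chromosome 19, 49340595 to 49362457) was measured at 5.76, 6.82 and 12.0 FPKM in parental and at 54.4, 52.4 and 49.6 FPKM in resistant replicates 0, 1 and 2. The lowest resistant value was far above the highest parental value, although parental replicate 2 was higher than the other parental libraries. The mean rose 6.36-fold, from 8.19 ± 3.33 to 52.1 ± 2.42 FPKM (SD, n = 3 each). The log2 fold change was 2.73 ± 0.26 (SE, limma, adjusted p = 0.000384). DKKL1 and CD37 overlap TEAD2 on the opposite strand. DKKL1 was at 0.798 to 1.16 FPKM in the parental and 1.66 to 1.92 FPKM in the resistant group, and CD37 was at most 1.05 FPKM. The genes most like TEAD2 by the same measure were EIF3EP1, BCAM and ANXA2R, with differences of 0.15, 0.16 and 0.16 log2 units. EIF3EP1 and ANXA2R passed the filter of 1 FPKM only through the resistant libraries. In the parental libraries they were at most 0.548 and 0.794 FPKM.

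TEAD3 (ENSG00000007866.18, chromosome 6, 35473597 to 35497079), a factor known from placenta, was measured at 10.6, 7.92 and 10.5 FPKM in parental and at 5.50, 4.03 and 5.48 FPKM in resistant replicates 0, 1 and 2. The groups did not overlap, and the mean fell 1.93-fold, at a log2 fold change of −0.94 ± 0.19 (SE, limma, adjusted p = 0.00854). TEAD1 (ENSG00000187079.15, chromosome 11, 12674421 to 12944737), the widely expressed founding member, was measured at 16.4, 14.8 and 11.9 FPKM in parental and at 16.8, 18.9 and 16.5 FPKM in resistant replicates 0, 1 and 2. Its groups lay close without overlap, and the log2 fold change of 0.28 (95% interval −0.06 to 0.63) did not pass the threshold. TEAD4 (ENSG00000197905.8, chromosome 12, 2959330 to 3040676) was measured at 16.5, 19.1 and 21.5 FPKM in parental and at 22.2, 20.3 and 17.2 FPKM in resistant replicates 0, 1 and 2. Its groups overlapped over most of their range, and the 95% interval of its log2 fold change of 0.06 ran from −0.28 to 0.41.

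Set against the sum of all 4 TEAD genes, TEAD2 made up 11.7%, 14.0% and 21.4% in the parental group and 55.0%, 54.8% and 55.8% in the resistant group. TEAD4 held 37.1 ± 3.13% and TEAD1 28.4 ± 6.24% in the parental cells, and 21.0 ± 1.52% and 18.5 ± 1.38% in the resistant cells (SD, n = 3 each). TEAD3 held 18.8 ± 2.60% and 5.32 ± 1.00%. TEAD2 had the highest share in every resistant library. In the parental group its mean share was the lowest, but its values overlapped with those of TEAD3 and TEAD1, and without parental replicate 0 its mean of 17.7% was above the 17.5% of TEAD3. The summed TEAD level was 49.3, 48.6 and 55.9 FPKM in the parental group and 98.9, 95.6 and 88.8 FPKM in the resistant group. Without TEAD2 the sum was 43.5, 41.8 and 44.0 FPKM against 44.5, 43.2 and 39.2 FPKM, and these values overlapped. The ratio of the summed coactivators to the summed TEAD factors, which no scaling of the libraries alters, was 0.761, 0.857 and 0.693 in the parental group and 0.231, 0.282 and 0.309 in the resistant group. The TEAD sum was higher and the coactivator sum lower in every resistant library, and both are given as a description with no test.

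**Figure D4:**
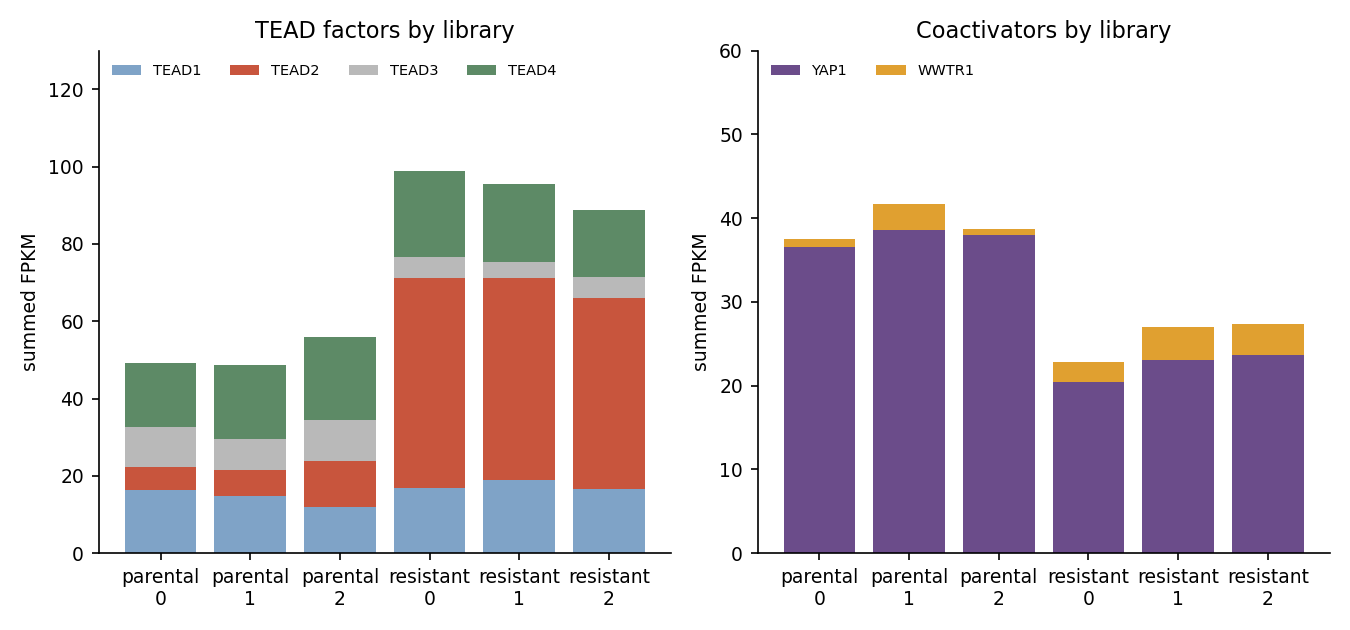
Summed FPKM of the TEAD factors (left) and of the coactivators (right) in each library, with 1 bar per library stacked by gene and both axes starting at 0. The red TEAD2 part grows from 5.76 to 12.0 FPKM in the parental libraries to 49.6 to 54.4 FPKM in the resistant group, and the YAP1 part of the coactivators is smaller in all resistant libraries.

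The target genes did not move together. CTGF, a secreted matrix protein and the best known YAP target (ENSG00000118523.5, chromosome 6, 131948176 to 131951372), was measured at 0.0253, 0 and 0.150 FPKM in parental and at 3.31, 3.59 and 2.04 FPKM in resistant replicates 0, 1 and 2. It was close to absent from the parental libraries and low but present in every resistant library. By the estimated depth, the parental values rest on about 1.1, 0 and 4.3 reads and the resistant values on about 125.9, 124.4 and 61.6 reads. The log2 fold change was 4.36 ± 0.47 (SE, limma, adjusted p = 0.000613). Its size depends on the pseudocount, being 1.89 with 1 FPKM and 6.24 with 0.01 FPKM, and the gene was called with both. The window with 3 TEAD motifs printed above is that of this gene. A long non-coding RNA, LINC01013, overlaps CTGF on the opposite strand and was at 0 in every library.

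CYR61, a secreted relative of CTGF and the other standard reporter of YAP activity (ENSG00000142871.16, chromosome 1, 85580761 to 85584589), was measured at 3.33, 3.12 and 3.49 FPKM in parental and at 0.948, 1.18 and 0.962 FPKM in resistant replicates 0, 1 and 2. Each group was tight and the groups were well apart. The mean fell 3.21-fold, from 3.31 ± 0.185 to 1.03 ± 0.131 FPKM (SD, n = 3 each). The log2 fold change was −1.60 ± 0.21 (SE, limma, adjusted p = 0.00134). The ratio of CTGF to CYR61 within a library, which is free of the scaling, was 0.00761, 0 and 0.0429 in the parental group and 3.49, 3.03 and 2.12 in the resistant group. CYR61 was therefore the higher of the pair in every parental library and CTGF in every resistant library.

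AMOTL2, a junction protein of the angiomotin family that binds YAP and is itself a YAP target (ENSG00000114019.14, chromosome 3, 134355347 to 134375479), was measured at 7.01, 5.65 and 6.42 FPKM in parental and at 7.30, 9.91 and 7.18 FPKM in resistant replicates 0, 1 and 2. The groups were close without overlap, and the log2 fold change of 0.34 (95% interval −0.09 to 0.76) was not past the threshold. The genes most like AMOTL2 by the same measure were PTDSS2, RAPH1 and PPP1R3F, with differences of 0.06, 0.06 and 0.07 log2 units. ANKRD1, an ankyrin repeat protein that is a strong YAP target in other cells (ENSG00000148677.6, chromosome 10, 90912096 to 90921087), was measured at 0.0273, 0.0274 and 0.0847 FPKM in parental and at 0.127, 0.0686 and 0.0390 FPKM in resistant replicates 0, 1 and 2. These values rest on an estimated 0.8 to 3.6 reads and overlapped between the groups, so that no difference was detectable at this depth. With no filter on low values its log2 fold change was 0.28 (limma, adjusted p = 0.539). Of the genes with a promoter window, which CYR61 lacked, CTGF and ANKRD1 alone had several TEAD motifs. Both were near 0 in parental cells, and CTGF rose while ANKRD1 stayed too low to be tested.

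Ordered by mean level, the parental cells had YAP1 first, then TEAD4, TEAD1, TEAD3, TEAD2, AMOTL2, CYR61, WWTR1, CTGF and ANKRD1. Neighbours whose values overlapped in this order were TEAD3 with TEAD2, TEAD2 with AMOTL2, and CTGF with ANKRD1. In the resistant cells the order was TEAD2, YAP1, TEAD4, TEAD1, AMOTL2, TEAD3, WWTR1, CTGF, CYR61 and ANKRD1. Here YAP1 overlapped with TEAD4, TEAD4 with TEAD1, and WWTR1 with CTGF. TEAD2 stood above YAP1 in every resistant library, with a lowest value of 49.6 FPKM against a highest of 23.6 FPKM.

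Of 26 genes that act upstream of YAP and TAZ, all were tested, 6 rose, 4 fell and 16 did not pass the threshold, with a median log2 fold change of 0.08. FAT4 passed the filter on low values only through the resistant libraries. In all 38.5% were called, against 44.4% of all genes. Among the core kinases, LATS2, which phosphorylates YAP and is also induced by it, fell from 8.11, 8.74 and 8.42 FPKM to 3.81, 3.13 and 2.60 FPKM (log2 fold change −1.39, limma, adjusted p = 0.00114). Its paralog LATS1 was measured at 9.62, 11.4 and 10.1 FPKM in parental and at 12.3, 12.2 and 15.5 FPKM in resistant replicates 0, 1 and 2, without passing the threshold, which it passed with median-ratio scaling (log2 fold change 0.46, limma, adjusted p = 0.0336). MOB1A, the coactivator of the LATS kinases, rose from 23.5, 28.1 and 23.9 FPKM to 52.0, 54.5 and 54.7 FPKM (log2 fold change 1.10). Of LATS1, LATS2 and MOB1A, LATS2 was thus called lower and MOB1A higher, while LATS1 lay higher without being called. The groups did not overlap in any of them, as in 16 of the 26 upstream genes and 54.8% of all genes tested.

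STK3, STK4 and SAV1, which stand above the LATS kinases, did not pass the threshold, with log2 fold changes of 0.01, −0.36 and 0.15. NF2, the tumour suppressor merlin, fell from between 47.2 and 50.5 FPKM to between 33.3 and 39.0 FPKM, at a log2 fold change of −0.40. TAOK3, a kinase that can phosphorylate MST kinases, fell from between 86.3 and 97.1 FPKM to between 26.8 and 36.4 FPKM (log2 fold change −1.48). Among the angiomotins, which hold YAP at junctions, AMOT and AMOTL1 rose, while AMOTL2 did not pass the threshold. AMOT went from 5.09, 4.09 and 4.44 FPKM to 14.9, 17.1 and 16.3 FPKM (log2 fold change 1.81), and AMOTL1 from 0.0872, 0.583 and 0.582 FPKM to 4.28, 3.92 and 4.85 FPKM (log2 fold change 3.32, limma, adjusted p = 0.00340). FRMD6 missed the threshold with all libraries (limma, adjusted p = 0.0532) and passed it without parental replicate 1 (limma, adjusted p = 0.00415). Without that library 11 of the 26 upstream genes were called, against 10190 of all 24414 genes tested. FRMD6 also passed with median-ratio scaling, with rescaling that left out the highest genes and with a filter of 1 FPKM (limma, adjusted p = 0.0414, 0.0480 and 0.0426).

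VGLL4, which competes with YAP for TEAD factors, fell from 34.2, 33.7 and 33.8 FPKM to 23.0, 20.3 and 23.3 FPKM. Its log2 fold change was −0.61 ± 0.09 (SE, limma, adjusted p = 0.00178), and every resistant value was below every parental value. The other members of the VGLL family, which also bind TEAD factors, were too low to be tested. VGLL1 was listed at 0 in every library, VGLL2 was above 0 in resistant replicate 0 alone with 0.0417 FPKM, and VGLL3 was at most 0.0661 FPKM. VGLL4 was thus the family member that gave nearly all of the signal in both kinds of cells.

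Of 18 further YAP and TAZ target genes, 16 were tested, 6 rose, 4 fell and 6 did not pass the threshold, with a median log2 fold change of 0.33. That is 62.5% called, against 44.4% of all genes, and RBMS3 passed the filter on low values only through the resistant libraries. LATS2 and PTPN14 stand in this list and in the upstream list. The genes that rose were F3, IGFBP3, CRIM1, RBMS3, NT5E and MYOF, and those that fell were FJX1, TGFB2, ASAP1 and LATS2. These were named in full after their values were seen. F3, which encodes tissue factor, was measured at 0.0310, 0.0937 and 0.508 FPKM in parental and at 6.85, 6.41 and 6.44 FPKM in resistant replicates 0, 1 and 2 (log2 fold change 4.74). IGFBP3, a binding protein of insulin-like growth factors, rose from 1.19, 1.05 and 2.36 FPKM to 27.3, 30.2 and 30.1 FPKM (log2 fold change 4.25, limma, adjusted p = 0.000106). CRIM1, a transmembrane protein that binds bone morphogenetic proteins, rose from 2.60, 1.36 and 1.65 FPKM to 27.0, 28.1 and 23.7 FPKM (log2 fold change 3.79). The rule that named these 3 genes required groups without overlap, and F3 averaged 1 FPKM or more only through the resistant libraries. Of the 16 genes tested, 13 did not overlap between the groups, against 54.8% of all genes tested. On the other side, FJX1, a secreted ligand-like protein, fell from 3.95, 4.28 and 2.85 FPKM to 0.217, 0.424 and 0.278 FPKM, and TGFB2, a growth factor, fell from 0.702, 0.630 and 1.16 FPKM to 0.0754, 0.132 and 0.138 FPKM. RBMS3 was at 0 in all parental libraries, so that no fold change is given for it. NUAK2 lay lower without overlap but was not called (log2 fold change −0.56, limma, adjusted p = 0.0591). It was called with a filter of 1 FPKM, with quantile scaling and without parental replicate 1 (limma, adjusted p = 0.0462, 0.0422 and 0.0208). AXL and FOXF2 were below 0.14 FPKM in every library and were not tested.

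**Figure D5:**
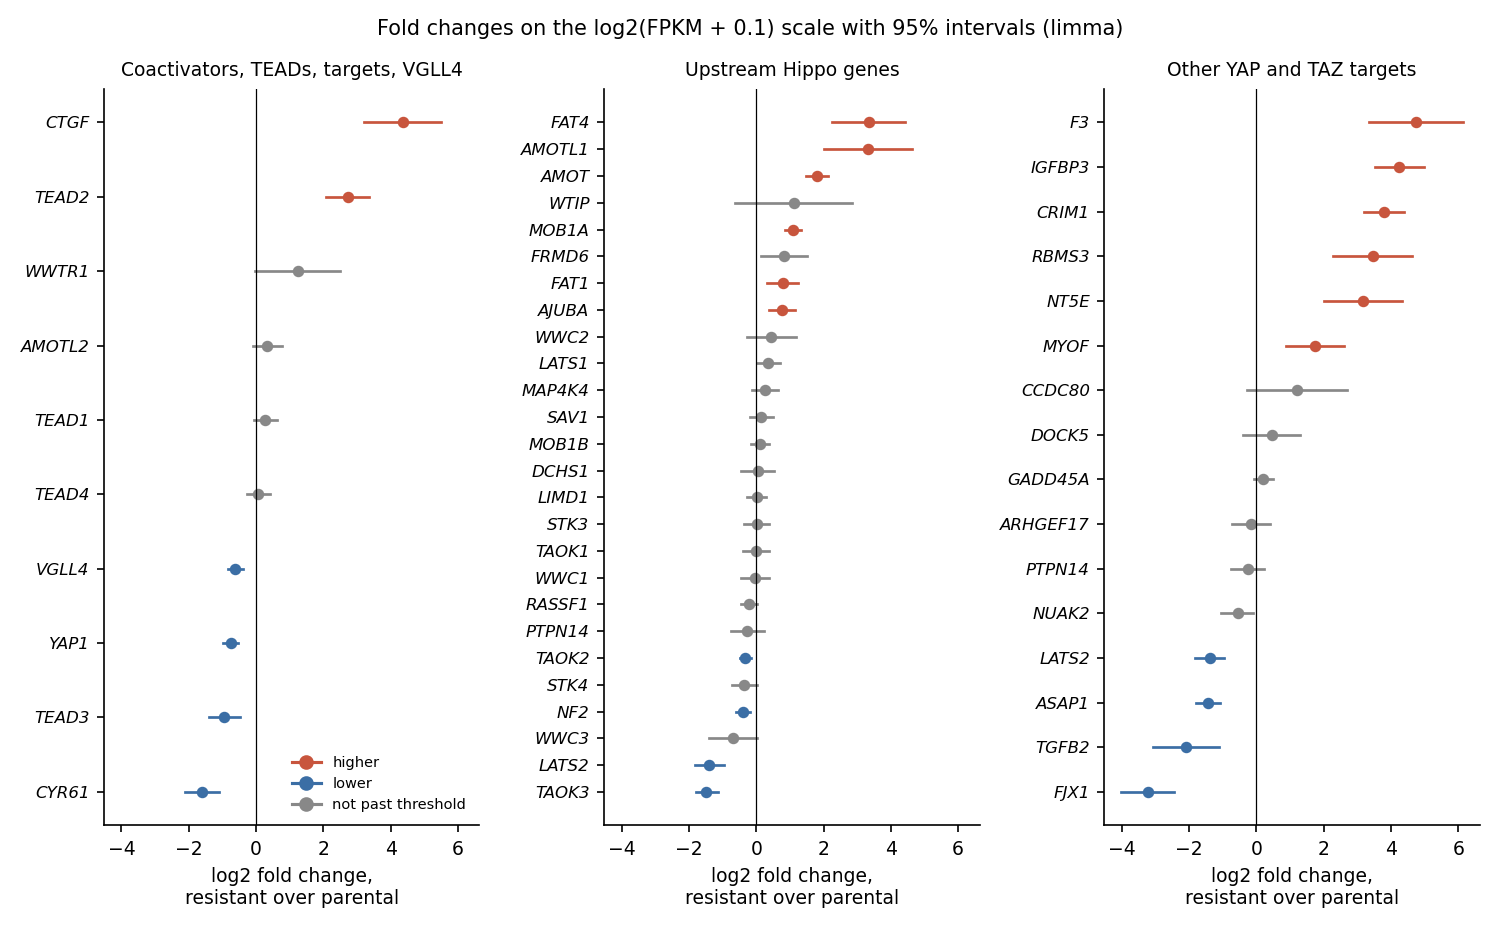
Log2 fold change of resistant over parental cells on the log2(FPKM + 0.1) scale with its 95% interval from limma for each gene tested, for the effectors with VGLL4 (left), the upstream genes (middle) and the further targets (right). Red genes rose and blue genes fell at an adjusted p below 0.05, grey genes did not pass, and every panel holds both directions.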

How the data were processed

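Per the methods of the study, reads were 50 bp long and single-end. The authors used TrimGalore 0.4.3 for trimming, STAR 2.5.3 for alignment (GRCh38, GENCODE v25) and Cufflinks 2.2.1. The submitters' processing notes name Trimmomatic 0.27, FastQC 0.10.1 and the mouse build mm10 instead, while the deposited table holds human Ensembl identifiers. Its header names no unit, and the methods do not state one. The deposited values were taken as FPKM, the unit in which Cufflinks writes gene levels, from their form and the gene and locus columns. How the libraries were scaled against each other is not given in the sources used here.

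A pseudocount of 0.1 FPKM was added, genes averaging 0.1 FPKM or more were kept, and log2 values were fitted with limma 3.58.1 (lmFit and eBayes with a variance trend) in R 4.3.3, without a block. All p values are two-sided with Benjamini-Hochberg adjustment over all genes tested. A single gene with 3 values against 3 cannot go below p = 0.1 in an exact permutation test. Positions were taken from GENCODE v44 (GRCh38) and promoters from RefSeq (GRCh38.p14), whose proteins were not used here. Depth was estimated from single-transcript genes of 600 to 8000 bases with fragments assumed to be 200 bases long, and the read numbers derived from it are estimates. Python 3.11.15, numpy 2.4.6, pandas 2.3.3 and matplotlib 3.10.9 were used.

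The genes and lists were chosen with earlier results of these data known. Named were all 10 genes, the 3 genes of each pathway list with the largest log2 fold change among called genes averaging 1 FPKM or more without overlap, core kinases with NF2, the VGLL genes, and the 3 genes most like the highest member of each class. Marker lists were to be given as counts and ranges. The marker genes named, with FRMD6, FJX1, TGFB2 and NUAK2, were chosen after their values were seen. Alternatives covered the pseudocount, the filter, the scaling, the variance trend, a replicate block, each library left out, and the thresholds.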

Additional observations from a re-analysis of the deposited data

How the results depend on the processing

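The calls and directions of TEAD2, CTGF and CYR61 were the same under all 17 alternatives tried, as were the missing calls of TEAD1 and AMOTL2. When a log2 fold change of at least 1 was also required, 6979 genes were called, 3 of the effectors and targets (TEAD2, CTGF and CYR61), 6 of the upstream genes and 0 of the VGLL genes. By construction this setting drops YAP1 and TEAD3, which were called with the other 16. WWTR1 was called without parental replicate 1 alone. With each library left out in turn, 9303 to 10190 genes were called over all genes, 5 to 6 of the effectors and targets, 9 to 11 of the upstream genes and 10 to 11 of the further targets. The log2 fold change of TEAD4 was −0.04 without parental replicate 0 and −0.02 without resistant replicate 0, and with any library left out it ranged from −0.04 to 0.16. TEAD4 was not called with any alternative. The labels number the libraries 0 to 2 in both groups, but nothing ties equal numbers together, and the deviations of equally numbered libraries had correlations of 0.008, 0.017 and −0.003 across genes. With a replicate block, 9463 genes were called, and 5 effectors and targets, 10 upstream genes and 10 further targets, so that no count moved by over 1.5 times. The scaling alternatives shifted the median log2 fold change of all genes from −0.05 to at most 0.04 and at least −0.07. No count test and no counting interval could be had from FPKM, so that the precision of low genes such as CTGF in parental cells and ANKRD1 is known only from the estimated reads.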
